A study of Mus musculus with 10 samples.

Results

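Transcription factors that mark the mesodermal and neural crest sources of the outflow tract and great arteries were read across sorted aortic cells of mouse embryos with and without elastin. The 10 are the GATA factors Gata6 and Gata4, the HAND factors Hand2 and Hand1, the LIM homeodomain factor Isl1, the T-box factors Tbx18 and Tbx20, Tcf21, Wt1 and the forkhead factor Foxf1. They were chosen as a list of gene symbols, with earlier results of these data known, and all 10 were found among the 28165 genes of the deposited count table. Of these, 8 passed the filter on low counts and were tested, and Gata4 and Hand1 did not. The Eln-/- group had 5 libraries and the Eln+/+ group 5, all from untreated aorta at embryonic day 15.5. Both genotypes came from intercrosses of mice heterozygous for Eln that carried Acta2-GFP, a reporter that puts green fluorescent protein under control of smooth muscle actin. The cells sequenced were positive for GFP, negative for CD31, an endothelial surface protein, and negative for the dead-cell dye DAPI. The labels name neither the allele behind Eln-/- nor the number of embryos in a library. The p-values therefore measure the spread between these libraries, some of which may be technical.

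The wall of the arch and ascending aorta is built from neural crest and from the second heart field, a pool of pharyngeal mesoderm that adds cells to the growing outflow tract, while the descending aorta draws on paraxial and splanchnic mesoderm. Isl1, Hand2 and the GATA factors act in second heart field progenitors, and Hand2 and Gata6 are also used by neural crest cells of the outflow tract. Wt1, Tcf21 and Tbx18 mark the epicardium, the outer cell layer of the heart, and fibroblasts or mural cells that derive from it. Foxf1 answers hedgehog signals in splanchnic mesoderm, and Tbx20 acts in cardiac muscle and valve precursors.

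Total counts ranged from 28367780 to 56371507 in Eln-/- libraries and from 26951733 to 63866416 in Eln+/+ libraries. The fewest genes with at least 1 count were found in Eln-/- replicates 4 and 5 (15595 and 15925 genes) and Eln+/+ replicate 1 (15089 genes), and the other 7 libraries had 18157 to 22951. Eln itself had 0 to 36 counts in Eln-/- libraries and 2409 to 105866 in Eln+/+ libraries, which fits the labels. Even this difference, a log2 fold change of -12.19, was not called by edgeR (adjusted p = 0.152). Acta2 was at 599 to 1738 CPM (counts scaled to a common library size) in Eln-/- libraries and at 471 to 1192 CPM in Eln+/+ libraries. Pecam1, which encodes CD31, was at 0 to 3.40 CPM in Eln-/- and 0 to 7.68 CPM in Eln+/+ libraries. Other endothelial markers were higher. The 10 such markers, Pecam1 among them, summed to 42.5 to 83.1 CPM in Eln-/- and 15.3 to 93.6 CPM in Eln+/+ libraries. Egfl7, the most abundant one tested, was at 7.73 to 52.3 CPM in Eln-/- and 7.95 to 24.1 CPM in Eln+/+ libraries. In bulk libraries, fewer cells that express a factor and less RNA per cell cannot be told apart.

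Gata6, Hand2 and Tcf21 were the factors with at least 10 counts in all 10 libraries, and none of the 10 factors separated the genotypes. Levels per length, as CPM per kilobase (kb) of exon, ordered the factors, by their median over both genotypes, as Gata6, Tcf21, Hand2, Tbx18, Wt1, Foxf1, Tbx20, Isl1, Gata4 and Hand1. The median level over the 10 libraries was 5.84 CPM per kb for Gata6, 3.89 for Tcf21, 3.14 for Hand2, 2.77 for Tbx18, 1.20 for Wt1 and 0.883 for Foxf1. It was 0.191 CPM per kb for Tbx20, 0.158 for Isl1, 0.00272 for Gata4 and 0 for Hand1. No neighbours in this order differed beyond their spread: the median log2 difference between each pair (log2 of CPM per kb plus 0.1) was smaller than the SD of that difference over the libraries, for example 0.33 against 1.02 for Gata6 over Tcf21. Tcf21 was above Hand2 in 5 libraries and below it in the other 5. Within Eln-/- libraries the medians were highest for Gata6 (6.98 CPM per kb), Tcf21 (5.70) and Hand2 (2.92). Within Eln+/+ libraries they were highest for Hand2 (5.46 CPM per kb), Gata6 (2.81) and Tbx18 (2.72), and Tcf21 was at 1.76.

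**Figure D1:**
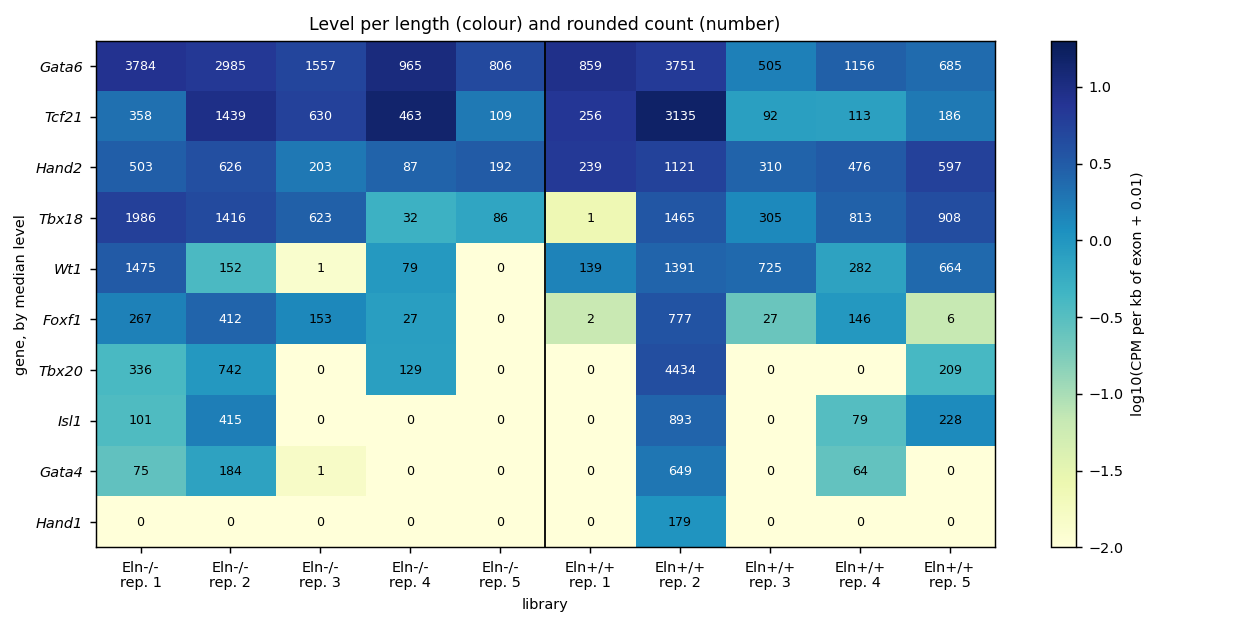
Level of each factor in each library, Eln-/- replicates left of the line and Eln+/+ replicates right of it. Colour gives log10 of CPM per kb of exon plus 0.01, and numbers give rounded counts. Gata6, Tcf21 and Hand2 have counts in every column, whereas Tbx20, Isl1 and Gata4 have 0 counts in 5 libraries each and Hand1 in 9.

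The factors low in that order were found in some libraries and not in others. Tbx20, Isl1 and Gata4 each had 0 counts in 5 of the 10 libraries. Over all tested genes, among which Gata4 was not, 1.49% had 0 counts in at least 5 libraries and 62.8% in no library. For Tbx20, Isl1 and Gata4, counts of 0 allow at most 0.0474 to 0.217 CPM, depending on the library (3 counts, counting error only). In the libraries with at least 10 counts, Tbx20 was at 4.59 to 50.7 CPM, Isl1 at 1.25 to 10.2 CPM and Gata4 at 1.01 to 7.43 CPM. Eln-/- replicates 1 and 2 had 9 of the 10 factors at 10 counts or more, replicate 4 had 7, replicate 3 had 5 and replicate 5 had 4. Among Eln+/+ libraries, replicate 2 had all 10, replicate 4 had 8, replicate 5 had 7, replicate 3 had 6 and replicate 1 had 4. These numbers broadly followed the genes detected in a library. Libraries with 9 or 10 factors had 21097 to 22951 detected genes, and those with 4 had 15089 and 15925. Eln-/- replicate 4, with 15595 genes and 7 factors, went the other way.

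The 300 bases that span the start site of 2 factors counted in every library (Hand2, Tcf21) and of 2 with 0 counts in 5 libraries (Isl1, Tbx20) are shown for comparison. They are RefSeq windows on GRCm38.p6, from 250 bases before to 50 after the start, read 5′ to 3′ on the gene's strand. Windows of 5 of the 10 factors matched by symbol. Hand2 lies at chr8:57320733-57321032 (plus strand), Tcf21 at chr10:22820094-22820393 (minus), Isl1 at chr13:116309639-116309938 (minus) and Tbx20 at chr9:24774254-24774553 (minus). Capitals mark GATA hexamers (AGATAA and TGATAA, and each with G as its last letter), the letters GATA factors recognise, and E-boxes (CANNTG), the letters that HAND factors and Tcf21 recognise with a partner, on either strand.
Hand2: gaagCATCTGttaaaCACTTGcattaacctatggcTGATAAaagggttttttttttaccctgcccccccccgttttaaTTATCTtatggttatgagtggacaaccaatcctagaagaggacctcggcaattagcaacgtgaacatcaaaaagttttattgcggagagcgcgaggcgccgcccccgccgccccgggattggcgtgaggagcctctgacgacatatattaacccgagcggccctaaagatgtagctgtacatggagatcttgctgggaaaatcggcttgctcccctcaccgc
Tcf21: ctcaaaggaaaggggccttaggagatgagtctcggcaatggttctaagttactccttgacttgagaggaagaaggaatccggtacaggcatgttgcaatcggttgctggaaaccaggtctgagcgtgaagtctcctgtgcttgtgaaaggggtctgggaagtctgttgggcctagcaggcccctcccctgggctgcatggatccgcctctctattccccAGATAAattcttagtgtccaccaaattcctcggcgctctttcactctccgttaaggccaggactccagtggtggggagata
Isl1: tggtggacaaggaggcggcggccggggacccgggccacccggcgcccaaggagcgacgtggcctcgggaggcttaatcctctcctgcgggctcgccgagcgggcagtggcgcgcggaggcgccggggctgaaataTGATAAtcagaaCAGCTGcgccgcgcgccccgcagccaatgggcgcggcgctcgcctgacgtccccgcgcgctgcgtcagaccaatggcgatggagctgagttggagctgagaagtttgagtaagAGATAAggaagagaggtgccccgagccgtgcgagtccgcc
Tbx20: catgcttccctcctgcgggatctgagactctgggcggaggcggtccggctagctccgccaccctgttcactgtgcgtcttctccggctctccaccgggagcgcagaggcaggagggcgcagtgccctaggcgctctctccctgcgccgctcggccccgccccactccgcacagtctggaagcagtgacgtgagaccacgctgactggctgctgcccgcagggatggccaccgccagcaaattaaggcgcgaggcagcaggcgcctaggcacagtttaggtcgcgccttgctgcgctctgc
Hand2 held 2 GATA hexamers and 2 E-boxes, Tcf21 held 1 GATA hexamer, Isl1 held 2 GATA hexamers and 1 E-box, and Tbx20 held neither. A GATA hexamer was found in 29.8% and an E-box in 72.3% of all 32851 windows of this length. No hexamer overlapped an E-box in these 4 windows. Isl1, with 0 counts in 5 libraries, had as many GATA hexamers as Hand2, which was counted in all 10. A match describes the letters of the window and is not a binding site.

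Whether loss of elastin changes these factors was asked by setting Eln-/- against Eln+/+ libraries in edgeR's quasi-likelihood test over all 15718 tested genes. None of the 8 tested factors passed the adjusted threshold of 0.05 (0% of tested genes did), and each had an adjusted p of 1.00. Log2 fold changes (Eln-/- over Eln+/+) were positive for Gata6, Tcf21, Foxf1 and Tbx18 and negative for Hand2, Wt1, Isl1 and Tbx20, with a median of -0.22 against 0.02 over all tested genes. No factor had an unadjusted p under 0.05, against 81 (0.515%) of the tested genes, and the libraries of the genotypes overlapped for every factor. Genotypes did not overlap for 0.305% of tested genes (0.14% higher and 0.165% lower in Eln-/-). The median SE of a log2 fold change was 1.02 over all tested genes. DESeq2, as another tool, called 4 genes higher and 2 lower, and none of them was among these factors.

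**Figure D2:**
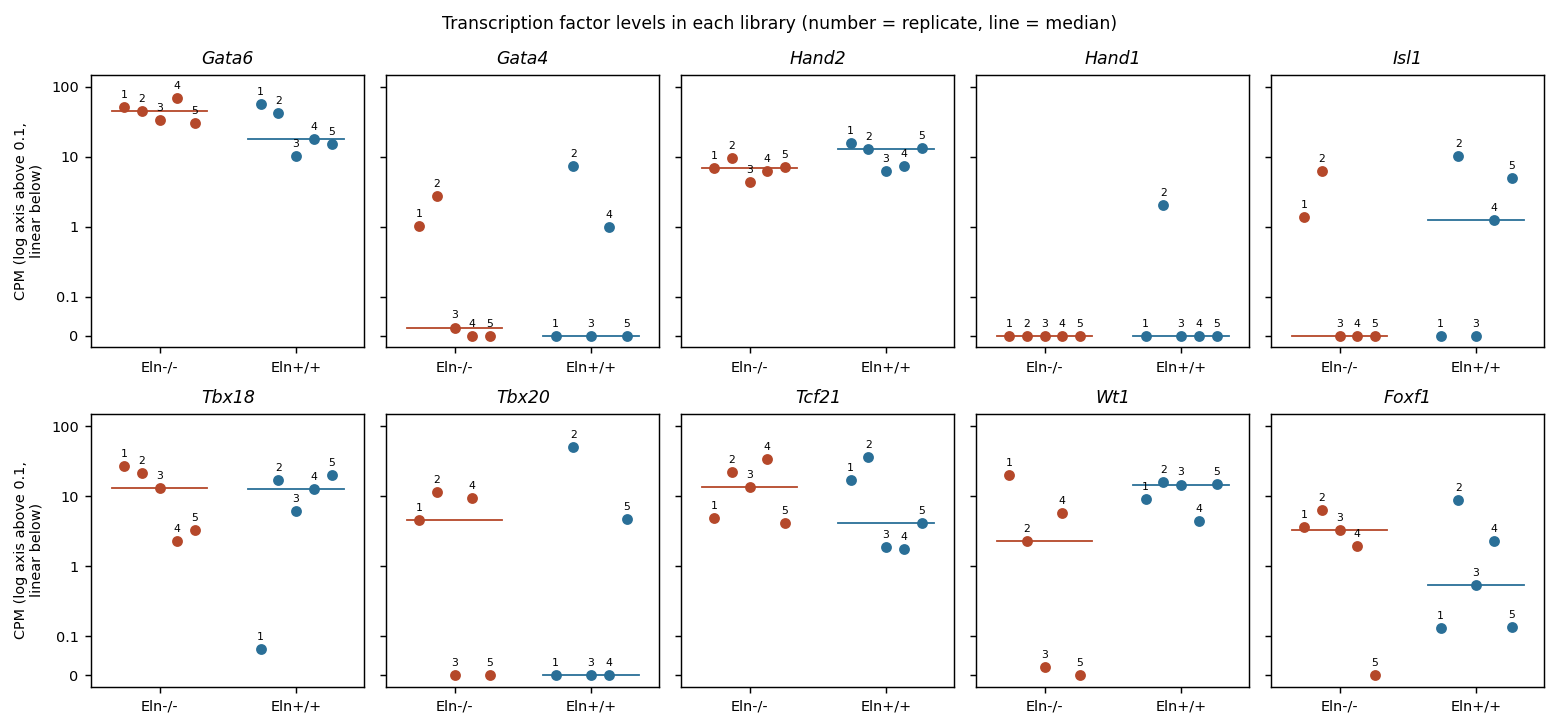
CPM of each factor in each library, on an axis that is logarithmic above 0.1 CPM and linear below, Eln-/- left and Eln+/+ right in each panel. Points are libraries with their replicate numbers, and lines are medians of 5 libraries. Gata6 and Hand2 span less than the other tested factors, and Eln+/+ replicate 2 is the highest point for 6 of the 10 factors.

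Gata6, a zinc finger factor of smooth muscle and outflow tract mesenchyme, had the highest median level per length over all libraries and in Eln-/- libraries, though not in Eln+/+ libraries, where that of Hand2 was higher. It averaged more CPM in Eln-/- libraries, though not beyond the spread. Its locus on GRCm38, the build used for every location here, is chromosome 18, 11052064 to 11085635, plus strand. The Eln-/- libraries, replicates 1 to 5 in order, had 51.7, 45.4, 33.1, 69.9 and 30.3 CPM. The Eln+/+ libraries in the same order had 56.7, 42.9, 10.2, 18.3 and 15.2 CPM. Eln+/+ replicates 3, 4 and 5 were below every Eln-/- library, and the other 2 Eln+/+ libraries lay within the Eln-/- range. Averages (± SD, n = 5 per genotype) were 46.1 ± 15.9 CPM for Eln-/- libraries and 28.7 ± 20.1 CPM for Eln+/+ libraries, with a log2 fold change of 0.69 (SE 0.55, edgeR adjusted p = 1.00). It was 1.09 without Eln+/+ replicate 1, the library with the fewest detected genes, and 0.47 without Eln+/+ replicate 3, and edgeR called neither.

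Its paralog Gata4, a factor of cardiac mesoderm that is also made in epicardium (chromosome 14, 63198922 to 63271692, minus strand), was low and seen in few libraries. It had 75, 184, 1, 0 and 0 counts in Eln-/- replicates 1 to 5 and 0, 649, 0, 64 and 0 counts in Eln+/+ replicates 1 to 5. Each genotype had 2 libraries with at least 10 counts. Per length, Gata6 exceeded Gata4 by 30.3-fold and 9.73-fold in Eln-/- replicates 1 and 2, and by 3.47-fold and 10.8-fold in Eln+/+ replicates 2 and 4. Gata4 had too few counts for the filter and has no fold change in the reported fit.

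Hand2, a basic helix-loop-helix factor of the second heart field and of neural crest mesenchyme, was the steadiest of the tested factors and averaged less in Eln-/- libraries, again within the spread. Its log2 CPM had an SD of 0.58 over the 10 libraries, against a median of 1.79 over all tested genes. Its locus is chromosome 8, 57320983 to 57324633, plus strand. Across Eln-/- replicates 1 to 5 it was counted at 6.87, 9.52, 4.32, 6.30 and 7.22 CPM. Across Eln+/+ replicates 1 to 5 it was counted at 15.8, 12.8, 6.28, 7.52 and 13.3 CPM. Eln+/+ replicates 1, 2 and 5 were above every Eln-/- library, and the other 2 lay within the Eln-/- range. Averages (± SD, n = 5 per genotype) were 6.85 ± 1.87 CPM for Eln-/- libraries and 11.1 ± 4.05 CPM for Eln+/+ libraries, with a log2 fold change of -0.70 (SE 0.61, edgeR adjusted p = 1.00). It stayed between -0.85 and -0.54 when any 1 library was left out.

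The antisense transcript Hand2os1 shares 461 bases of exon with Hand2, 19.6% of its exon length, and reads there cannot be assigned since the strand setting of the counts is unknown. Hand2os1 was at 2.80 to 56.1 CPM in Eln-/- libraries and at 4.85 to 73.0 CPM in Eln+/+ libraries. It was highest in Eln-/- replicate 4 and Eln+/+ replicate 1, where Hand2 was at 6.30 and 15.8 CPM.

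Hand1, the HAND factor of the early heart and of extraembryonic mesoderm (chromosome 11, 57828705 to 57832818, minus strand), was counted in a single library. It had 0 counts in all 5 Eln-/- libraries and 179 counts, 2.05 CPM, in Eln+/+ replicate 2, with 0 in the other 4 Eln+/+ libraries. In that library it was at 0.188 of the level of Hand2 per length.

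Isl1, the LIM homeodomain factor that marks second heart field progenitors and is also made by sympathetic neurons, was present or absent by library in both genotypes. Its locus is chromosome 13, 116298281 to 116309689, minus strand. Levels in Eln-/- replicates 1 to 5 were 1.38, 6.31, 0, 0 and 0 CPM. Levels in Eln+/+ replicates 1 to 5 were 0, 10.2, 0, 1.25 and 5.07 CPM. It was found in 2 Eln-/- and 3 Eln+/+ libraries. The log2 fold change was -1.10 (SE 2.14, edgeR adjusted p = 1.00), -3.22 without Eln-/- replicate 2 and -0.04 without Eln+/+ replicate 2. The 14 sympathetic and chromaffin markers found summed to 6.74 to 32.1 CPM in Eln-/- and 2.51 to 56.9 CPM in Eln+/+ libraries, and 2 to 10 of them had at least 10 counts in a library. Th, the rate-limiting enzyme of catecholamine synthesis, was at 0 in all 5 Eln-/- libraries and in every Eln+/+ library but replicate 4.

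Tbx18, a T-box factor of the epicardium and of mural cells, had nearly the same median in both genotypes. Its locus is chromosome 9, 87702800 to 87731260, minus strand. Replicates 1 to 5 of Eln-/- had 27.1, 21.5, 13.2, 2.32 and 3.23 CPM. Replicates 1 to 5 of Eln+/+ had 0.0660, 16.8, 6.18, 12.8 and 20.2 CPM. The 3 lowest values were those of the 3 libraries with the fewest detected genes, 2 from Eln-/- and 1 from Eln+/+. Averages (± SD, n = 5 per genotype) were 13.5 ± 10.96 CPM for Eln-/- libraries and 11.2 ± 8.12 CPM for Eln+/+ libraries. The log2 fold change of 0.27 (SE 1.07, edgeR adjusted p = 1.00) was -0.15 without Eln-/- replicate 1 and -0.05 without Eln+/+ replicate 1. D030062O11Rik on the other strand overlaps 20.6% of its exon length but was at 0.0752 to 0.580 CPM in Eln-/- and 0.0660 to 0.711 CPM in Eln+/+ libraries.

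Tbx20, a T-box factor of cardiac muscle and valve mesenchyme (chromosome 9, 24718138 to 24774303, minus strand), had a difference that rested on 1 library. The Eln-/- libraries, replicates 1 to 5 in order, had 4.59, 11.3, 0, 9.35 and 0 CPM. The Eln+/+ libraries in the same order had 0, 50.7, 0, 0 and 4.65 CPM. It was found in 3 Eln-/- and 2 Eln+/+ libraries, and Eln+/+ replicate 2 was far above the rest. The log2 fold change was -1.14 (SE 2.30, edgeR adjusted p = 1.00) with all libraries and 2.11 without Eln+/+ replicate 2, so that its direction turned with 1 library. Per length, Tbx18 was 15.0-fold and 4.85-fold of Tbx20 in Eln-/- replicates 1 and 2 and 11.05-fold in Eln+/+ replicate 5, but 0.631 of it in Eln-/- replicate 4 and 0.840 of it in Eln+/+ replicate 2.

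Tcf21, a helix-loop-helix factor of epicardium-derived and adventitial fibroblasts, varied widely within each genotype. Its locus is chromosome 10, 22817281 to 22820174, minus strand. Across Eln-/- replicates 1 to 5 it was counted at 4.89, 21.9, 13.4, 33.5 and 4.10 CPM. Across Eln+/+ replicates 1 to 5 it was counted at 16.9, 35.9, 1.86, 1.79 and 4.13 CPM. The genotypes overlapped over almost their whole range. Averages (± SD, n = 5 per genotype) were 15.6 ± 12.4 CPM for Eln-/- libraries and 12.1 ± 14.7 CPM for Eln+/+ libraries. The log2 fold change of 0.36 (SE 0.97, edgeR adjusted p = 1.00) was 1.34 without Eln+/+ replicate 2 and -0.13 without Eln-/- replicate 4. The sum of fibroblast markers ordered the libraries otherwise. Summed over 14 such markers, Tcf21 among them, the highest library was Eln-/- replicate 1, at 21972 CPM, where Tcf21 was at 4.89 CPM. Col1a1 alone was at 9677 CPM there. The single markers did not share 1 order. Dcn was highest in Eln+/+ replicate 3, at 2791 CPM. Mfap5 was highest in Eln+/+ replicate 1 (2228 CPM) and next in Eln-/- replicate 4 (1309 CPM), where Tcf21 was at 16.9 and 33.5 CPM.

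Wt1, a zinc finger factor of epicardium and mesothelium, was found at 4.46 CPM or more in every Eln+/+ library but was near 0 in 2 Eln-/- libraries. Its locus is chromosome 2, 105126529 to 105173616, plus strand. Levels in Eln-/- replicates 1 to 5 were 20.1, 2.31, 0.0213, 5.72 and 0 CPM. Levels in Eln+/+ replicates 1 to 5 were 9.17, 15.9, 14.7, 4.46 and 14.8 CPM. Eln-/- replicate 1 held the highest value of all 10 libraries, so the genotypes overlapped. Averages (± SD, n = 5 per genotype) were 5.64 ± 8.44 CPM for Eln-/- libraries and 11.8 ± 4.87 CPM for Eln+/+ libraries, with a log2 fold change of -1.06 (SE 1.43, edgeR adjusted p = 1.00). Without Eln-/- replicate 1 it was -2.56, and edgeR called neither.

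Foxf1, a forkhead factor of splanchnic mesoderm (chromosome 8, 121084386 to 121088144, plus strand), was found at 10 counts or more in 4 Eln-/- and 3 Eln+/+ libraries. Replicates 1 to 5 of Eln-/- had 3.65, 6.27, 3.25, 1.96 and 0 CPM. Replicates 1 to 5 of Eln+/+ had 0.132, 8.89, 0.547, 2.31 and 0.133 CPM. The log2 fold change was 0.33 (SE 1.47, edgeR adjusted p = 1.00), 1.95 without Eln+/+ replicate 2, its highest library, and -0.12 without Eln-/- replicate 2. Fendrr, the long noncoding RNA that starts beside Foxf1, had 14, 42, 0, 0 and 0 counts in Eln-/- replicates 1 to 5 and 0, 0, 2, 2 and 0 counts in Eln+/+ replicates 1 to 5.

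**Figure D3:**
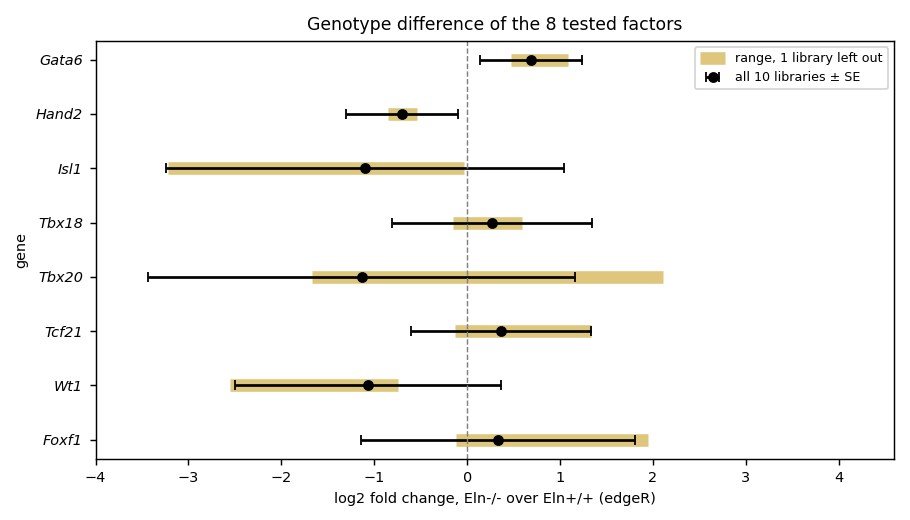
Log2 fold change of the 8 tested factors, Eln-/- over Eln+/+, from edgeR. Black points and bars are the estimate from all 10 libraries with its SE, and yellow bars span the estimates with 1 library left out. The bars of Tbx20, Tbx18, Tcf21 and Foxf1 cross 0 in yellow, and those of Gata6, Hand2, Wt1 and Isl1 do not.

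Eln+/+ replicate 2 was the highest library for Hand1, Gata4, Tbx20, Tcf21, Isl1 and Foxf1. It was also the only library in which all 17 cardiomyocyte markers had at least 10 counts. The markers summed to 176, 1156, 103, 793 and 165 CPM across Eln-/- replicates 1 to 5, and to 791, 1280.5, 20.996, 98.9 and 265 CPM across the Eln+/+ libraries in the same order. No cardiomyocyte marker was at 0 in all libraries. Nkx2-5, a cardiac homeodomain factor that was picked out after its values were seen, was at 0.232 and 5.63 CPM in Eln-/- replicates 1 and 2, at 8.35 CPM in Eln+/+ replicate 2 and at 0 in the other 7. Those 3 libraries were among the 4 with at least 10 counts of Gata4, which were also the 4 with the most detected genes (19907 to 22951). Myl7, the most abundant tested cardiomyocyte marker, was at 474 CPM in Eln+/+ replicate 1 and 360 CPM in Eln-/- replicate 4, both with 0 counts of Gata4. It was at 420 CPM in Eln-/- replicate 2 and 296 CPM in Eln+/+ replicate 2, where Gata4 was counted. The 16 epicardial and mesothelial markers summed to 33.3 to 222 CPM in Eln-/- libraries and 22.6 to 331 CPM in Eln+/+ libraries, again with Eln+/+ replicate 2 the highest. Smooth muscle markers summed to 1309 to 5078 CPM in Eln-/- libraries and 1305 to 3093 CPM in Eln+/+ libraries, and all 14 were tested, with 11 positive and 3 negative log2 fold changes and 0 called. Their median log2 fold change was 0.64 with all libraries and -0.51 without Eln-/- replicate 1. Blood and macrophage markers summed to 17.7, 385, 732, 4224 and 456 CPM across Eln-/- replicates 1 to 5, and to 14558, 235, 823, 503 and 716 CPM across the Eln+/+ libraries in the same order. High sums were mostly globin. In Eln+/+ replicate 1 the globin genes Hbb-bs and Hba-a1 were at 9954 and 2743 CPM. Lyz2, a macrophage marker, was at 0 in that library and highest in Eln+/+ replicate 3, at 8.02 CPM. The macrophage markers Adgre1, Cd68, Csf1r, C1qa, C1qb and Fcgr3 were instead highest in Eln+/+ replicate 2, at 1.11 to 4.43 CPM. They were at 0 in Eln+/+ replicate 3. The highest blood and macrophage sums were in Eln+/+ replicate 1 and Eln-/- replicate 4, which also had the highest CPM of Gata6 and Hand2os1. These libraries had the lowest TMM scaling factors, 0.562 and 0.487, against 0.848 to 1.37 in the others. A low factor raises the CPM of every gene in its library. The part of this scaling, or of any of these cell types, in the levels of the factors was not tested.

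**Figure D4:**
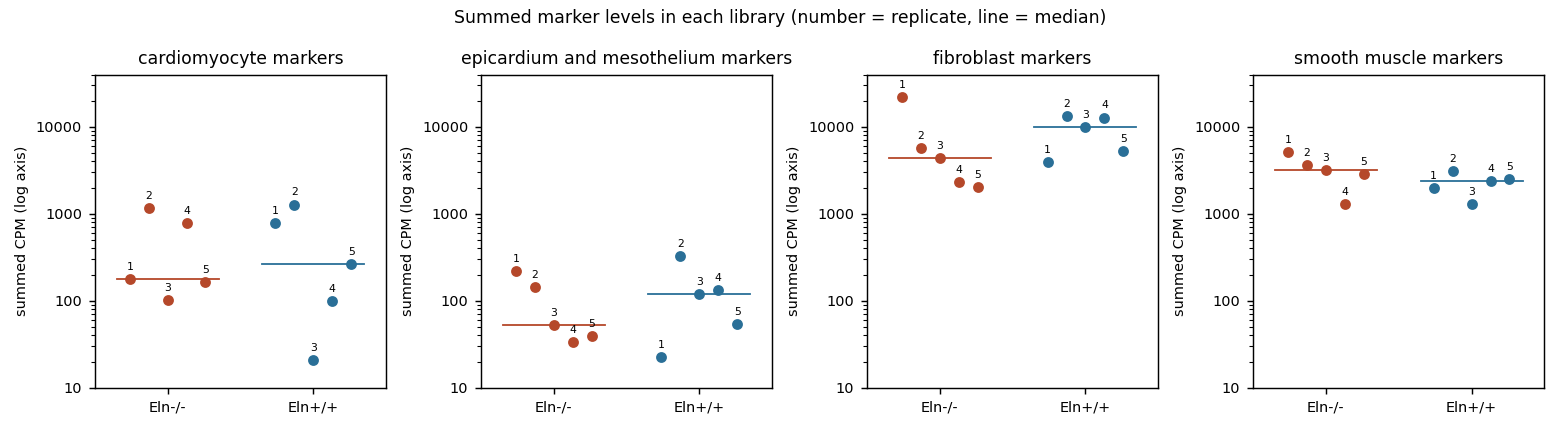
Summed CPM of 4 marker lists in each library on a logarithmic axis, Eln-/- left and Eln+/+ right. Points are libraries with their replicate numbers, and lines are medians. Cardiomyocyte markers run from 20.996 to 1280.5 CPM, with Eln+/+ replicate 2 and Eln-/- replicate 2 at the top.

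Tested genes that work with these factors did not separate the genotypes either, and in every list below 0 genes passed the adjusted threshold of edgeR's test. Six2, a second heart field gene that the filter removed, did not overlap between genotypes, but only by 1 count in Eln-/- replicate 2. With no filter, 35 genes higher and 32 genes lower in Eln-/- did not overlap. Six2 had 538 counts over the Eln-/- libraries and 0 over the Eln+/+ libraries, and is described under other observations. Of 19 partners and paralogs of GATA and HAND factors 16 were tested, with a positive log2 fold change for 8, a negative one for 8 and a median of 0.02, which was -0.49 without Eln-/- replicate 1. Twist2, a helix-loop-helix factor of mesenchyme, was at 32.3 to 106.5 CPM in Eln-/- and 38.5 to 56.9 CPM in Eln+/+ libraries. Mef2c, a muscle transcription factor, ranged more widely, at 3.35 to 114 CPM in Eln-/- and 16.4 to 70.1 CPM in Eln+/+ libraries. Of 21 second heart field and outflow tract genes 20 were found and 16 tested, with 10 positive, 6 negative and a median of 0.08, which was -0.06 without Eln+/+ replicate 1. Hes1, a target of Notch signalling, was the only tested gene of all the lists with an unadjusted p under 0.05. It was at 80.3 to 213 CPM in Eln-/- and 50.8 to 96.4 CPM in Eln+/+ libraries, a log2 fold change of 0.95 (SE 0.40, edgeR adjusted p = 1.00), and the genotypes overlapped. Prrx1, a homeodomain factor of mesenchyme, was at 17.3 to 91.9 CPM in Eln-/- and 24.7 to 145 CPM in Eln+/+ libraries.

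Lists for the other origins held more negative than positive fold changes, and their medians moved with single libraries, Eln+/+ replicate 2 among them. Of 22 neural crest genes 21 were found and 15 tested, with 3 positive, 12 negative and a median log2 fold change of -0.53. That median was -0.04 without Eln+/+ replicate 2 and -0.85 without Eln-/- replicate 1. The homeodomain factor Meis1 was at 18.9 to 153 CPM in Eln-/- and 40.8 to 144 CPM in Eln+/+ libraries, and Snai2, a zinc finger factor of crest migration, at 0.362 to 98.4 CPM in Eln-/- and 16.8 to 108 CPM in Eln+/+ libraries. Sox10, which defines migrating crest and glia, was at 0 to 0.683 CPM in Eln-/- and 0 to 0.195 CPM in Eln+/+ libraries. Other glial markers were higher. The 7 glia and Schwann cell markers found, Sox10 among them, summed to 13.6 to 92.7 CPM in Eln-/- and 16.3 to 171 CPM in Eln+/+ libraries. S100b, the most abundant one tested, was at 6.34 to 46.9 CPM in Eln-/- and 7.93 to 113 CPM in Eln+/+ libraries. Of 20 hedgehog and splanchnic mesoderm genes 15 were tested, with 5 positive, 10 negative and a median of -0.22. That median was 0.18 without Eln+/+ replicate 2 and -0.48 without Eln+/+ replicate 1. Osr1, a zinc finger factor of splanchnic mesoderm, was at 2.46 to 291 CPM in Eln-/- and 0.0660 to 238 CPM in Eln+/+ libraries, with its lowest values in Eln-/- replicate 4 and Eln+/+ replicate 1, where few genes were detected. Barx1, a homeodomain factor of stomach mesenchyme, was at 0 to 7.24 CPM in Eln-/- and 0 to 0.668 CPM in Eln+/+ libraries. Of 10 other T-box genes 7 were found and 4 tested, with 1 positive, 3 negative and a median of -0.15. That median was 0.52 without Eln+/+ replicate 2 and -0.79 without Eln-/- replicate 2. Tbx5, a factor of the heart's inflow region, was at 0 to 5.99 CPM in Eln-/- and 0.264 to 14.3 CPM in Eln+/+ libraries.

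Genes whose pattern over the 10 libraries lay nearest to a factor were sought among genes at an average log2 CPM of at least 2, by the root mean square difference of centred log2 CPM. For Gata6 the nearest were Hes1 (0.49), Btg1 (0.51) and Rgs5 (0.53), against a median of 1.80 over 9739 genes. For Tcf21 they were Fabp3-ps1 (0.86), Tnni1 (0.87) and Pgam2 (0.92), against a median of 2.24. Tnni1 and Pgam2 encode muscle proteins, a troponin subunit and a glycolytic enzyme. For Tbx18 they were Tmem184b (0.35), Ptbp1 (0.36) and Tbk1 (0.47), for Hand2 Zfp580 (0.39), Ipo8 (0.41) and Trmt11 (0.41), and for Wt1 Fat4 (0.94), Dnajc2 (0.99) and Cep85l (0.99). For Isl1 the nearest was Angptl7 (0.87), for Foxf1 Tceal3 (0.81) and for Tbx20 Ano1 (2.04), against medians of 3.23 for Isl1, 2.67 for Foxf1 and 4.27 for Tbx20. The medians were 2.30 for Tbx18, 1.64 for Hand2 and 3.44 for Wt1. All these patterns share the same 10 libraries and their differences in depth and detected genes.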

How the data were processed

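Bulk RNA libraries of sorted aortic smooth muscle cells, 5 of Eln-/- and 5 of Eln+/+ embryos, were compared, with groups taken from the labels. The authors deposited a table of estimated counts per gene. STAR, DESeq2 and the build mm10 are named in the submitters' processing notes, without versions. Which program counted reads, and whether by strand, is not stated. In each library 23.5% to 48.8% of values were fractional (tolerance 1e-06), and every value was rounded before testing. Genes were kept by filterByExpr, scaled by TMM factors and tested with edgeR 4.0.16 in R 4.3.3 (quasi-likelihood test, two-sided, genotype as the only term, Benjamini-Hochberg adjustment over 15718 genes, threshold 0.05). CPM used TMM factors, and log2 CPM a prior count of 2. Exon lengths came from GENCODE mouse release 21 (GRCm38). The biological coefficient of variation was 1.16, and intervals on 0 counts (3 counts) cover counting error only. Alternatives used DESeq2 1.42.0, limma 3.58.1, other scalings and filters, libraries left out and a replicate block. The test was checked on simulated data. The members, lists and alternatives were chosen with earlier results of these data known. Genes named from a list were its 2 most abundant tested genes and the one of smallest p, or markers that define a cell type.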

Additional observations from a re-analysis of the deposited data

Results flagged for a closer look

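In 19 groups of 5 libraries, 6 had a highest or lowest library far from the other 4, where the criterion is set so that chance flags about 1 in 20 groups of continuous values. That rate does not carry over to these groups, since many hold several values of 0 and share libraries. Of these, 4 were Eln+/+ replicate 2, for Hand1 (2.05 CPM), Gata4 (7.43 CPM), Tbx20 (50.7 CPM) and Foxf1 (8.89 CPM). The others were Wt1 in Eln-/- replicate 1 (20.1 CPM) and Isl1 in Eln-/- replicate 2 (6.31 CPM). In each case the library was the highest of its genotype.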

How the results depend on the processing

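No factor passed the adjusted threshold in any of 167 fits over 21 settings, and the smallest adjusted p was 0.486. Unadjusted, 5 fits had p under 0.05, 2 of Wt1 and 1 each of Gata6, Tcf21 and Hand1. Hand2, Gata6 and Wt1 kept their direction in all settings run. Tbx20 turned with limma-voom (1.41), with quality weights (3.97), without Eln+/+ replicate 2 and Eln-/- replicate 1 together (2.14) and with the replicate block (1.52), and Isl1 without that pair of libraries (0.0027). With 1 library left out, log2 fold changes ran from -0.15 to 0.59 for Tbx18, -1.67 to 2.11 for Tbx20, -0.13 to 1.34 for Tcf21 and -0.12 to 1.95 for Foxf1, and the median of blood markers, -1.45 with all libraries, from -2.81 to 0.78. The cause of these turns was not tested. Against 0 genes called by edgeR, DESeq2 called 4 higher and 2 lower, limma-voom 1 and 1, and quality weights 5 and 2. Leaving out 1 library gave 0 to 1 lower calls, and leaving out Eln+/+ replicate 2 with Eln-/- replicate 1 gave 1. Genes without overlap, 22 higher and 26 lower, became 35 higher with no filter, 351 and 248 without the 3 libraries with the fewest genes, 125 and 93 without the pair, and 36 to 100 higher and 38 to 160 lower without 1 library, as fewer libraries overlap less. The stricter filter removed Tbx20, Isl1 and Foxf1.

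Same-numbered libraries correlated by -0.556, 0.510, 0.118, -0.381 and 0.0920 for replicates 1 to 5, with no common sign. These values also carry differences in detected genes, 22951 in Eln-/- replicate 1 against 15089 in Eln+/+ replicate 1. They therefore cannot decide whether the numbers pair the samples. With the replicate block 0 genes were called.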

Other observations

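Six2, a homeodomain factor of the second heart field list, was removed by the filter and was picked out after its values were seen. It had 538 counts in all over the Eln-/- libraries, 4 of which had at least 10, and 0 over the Eln+/+ libraries. Eln-/- replicates 1 to 5 had 72, 1, 160, 182 and 123 counts. Pooled over libraries it was at least 206-fold higher in Eln-/-, against a limit of 3 counts over the Eln+/+ group (counting error only). That limit leaves out the spread between libraries, which ran from 0.0152 to 13.2 CPM within Eln-/-. With no filter, edgeR gave an unadjusted p of 0.00114 and an adjusted p of 0.599. Of the 28165 genes in the whole table, 7 had at least 1 count in every Eln-/- library and 0 in every Eln+/+ library. The opposite pattern was found for 1 gene.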
